A study of Mus musculus with 12 samples.

Results

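The 28 genes described here encode the machinery of transmission by GABA and glycine, the fast inhibitory transmitters of the brain, and were read in the dorsal raphe (DR) of control and STAT3 KO mice. They were listed by what their products do, with earlier results of these data known, and 28 of 28 were among the 24421 gene symbols counted. Per kilobase of exon, the genes for making, loading and clearing GABA were read at high levels in every animal, the glycine transporter of the nerve terminal, Slc6a5, at a low one, and the GABA-A receptor subunits over a wide range led by Gabrb2 and Gabra3. None of the 28 genes passed the test between genotypes after adjustment over all genes. Before adjustment 3 members had a p below 0.05 in that test, beside 7.66% of all genes. Glrb, with the smallest unadjusted p, was lower in STAT3 KO mice, and the subunits Gabre and Gabrq were higher. The most variable members were Gabra6 and Gabrd, which were high in the few animals whose libraries also had the highest levels of markers of cerebellar granule cells or of the forebrain.

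GABA is made from glutamate by the decarboxylases encoded by Gad1 and Gad2, is loaded into vesicles by the transporter encoded by Slc32a1, which also loads glycine, and is taken up again by transporters of neurons and astrocytes. It opens the chloride channel of GABA-A receptors, which are pentamers of alpha, beta and other subunits, and acts on GABA-B receptors, which are coupled to G proteins. Glycine opens a related chloride channel built of alpha subunits and the beta subunit encoded by Glrb. In the DR, local GABA neurons and inputs from other regions restrain the firing of the serotonergic neurons.

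STAT3 is a transcription factor activated by Janus kinases. STAT3 KO mice were Sert Cre/+; Stat3 fl/fl, and their control littermates were Sert Cre/+; Stat3 fl/+, so that both genotypes carried the Cre allele and at least 1 floxed Stat3 allele. Cre was driven from the serotonin transporter locus, which limits the deletion to cells that express this transporter or did so in development. The mice were of mixed C57BL/6 x 129 background, were housed singly, and were 8 to 16 weeks old when the experiments began. Among the 4 controls, 3 and 13 were female and 4 and 11 male. Of the 8 STAT3 KO animals, 5, 7, 10 and 16 were female and 6, 8, 14 and 15 male. The numbers are those of the library titles. One library was made for each animal from a square of tissue below the aqueduct, and the measurement was the number of sequenced reads counted on each gene, given here as counts per 1000000 counts on genes (CPM).

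The libraries held 24379588 to 29645210 counts on genes, so that 3 counts, taken as the floor, equalled 0.101 to 0.123 CPM. The floor takes in counting error and no other. Stat3 itself was read at 65.9 ± 1.26 CPM in controls (SD, n = 4) and 66.6 ± 2.898 CPM in STAT3 KO mice (SD, n = 8), but counts per gene do not resolve the deleted exons and cannot check the labels. The 8 serotonergic markers summed to 1395 CPM or more in every library. Some libraries stood apart. STAT3 KO 8 had low counts on GC-rich genes (Spearman rho of its deviation with GC content -0.426 across 14893 genes, against -0.192 to 0.263 in the others). Forebrain markers summed to 786 CPM in control 4 and to at most 300.4 CPM elsewhere. Cerebellar granule cell markers summed to 121, 107 and 299 CPM in control 3, STAT3 KO 10 and STAT3 KO 16, and to at most 38.6 CPM elsewhere. Markers of Purkinje cells, which are GABA neurons of the cerebellar cortex, summed to 387, 679, 358 and 842 CPM in STAT3 KO 7, 10, 14 and 16 and to at most 284 CPM in the other 8 libraries, so that the 4 highest were all of 1 genotype. All 6 of these markers had counts in every library, and Pcp2 ran from 0.0675 to 34.4 CPM. Choroid plexus markers summed to 221 CPM in STAT3 KO 8 and 215 in STAT3 KO 16, mostly from Ttr, and to at most 9.22 CPM elsewhere.

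The alpha subunits decide much of the pharmacology of a GABA-A receptor, and a single codon separates those that bind classical benzodiazepines from those that do not. A stretch of 33 coding bases around it is shown for the 5 alpha subunit members, since their levels are compared below, with this codon in capitals. The sequences are from the GENCODE vM21 transcripts on GRCm38, all on the minus strand.
Gabra2: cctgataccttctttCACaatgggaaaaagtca
Gabra3: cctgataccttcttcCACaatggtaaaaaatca
Gabra5: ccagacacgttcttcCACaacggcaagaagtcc
Gabra4: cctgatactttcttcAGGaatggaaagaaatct
Gabra6: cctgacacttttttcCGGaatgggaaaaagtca
The codon encodes histidine in Gabra2 (chr5:71014490-71014522), Gabra3 (chrX:72501153-72501185) and Gabra5 (chr7:57488876-57488908), and arginine in Gabra4 (chr5:71641137-71641169) and Gabra6 (chr11:42317632-42317664). Receptors with a histidine there are known to bind classical benzodiazepines, and those with an arginine are insensitive to them. Over the 33 bases the genes of a pair were identical at 23 to 30 positions, the most for Gabra2 and Gabra3.

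Several members lie side by side in the genome. Gabrg1, Gabra2, Gabra4 and Gabrb1 lie together on chromosome 5, Gabra5 and Gabrg3 on chromosome 7, Gabra6 and Gabrb2 on chromosome 11, and Gabre (chrX:72255999-72274803, minus strand), Gabra3 (chrX:72432681-72656848, minus strand) and Gabrq (chrX:72825178-72842602, plus strand) on the X chromosome, in GENCODE vM21 on GRCm38. Neighbours were read at unlike levels. Per kilobase of merged exons, Gabra3 was at 35.7 ± 2.04 CPM, Gabrq at 8.44 ± 1.0 and Gabre at 0.814 ± 0.103 (SD, n = 12). The 300 bases around the start of each of these genes are shown from RefSeq (GRCm38.p6), from 250 bases before to 50 after the start, with every CG dinucleotide in capitals.
Gabra3 promoter: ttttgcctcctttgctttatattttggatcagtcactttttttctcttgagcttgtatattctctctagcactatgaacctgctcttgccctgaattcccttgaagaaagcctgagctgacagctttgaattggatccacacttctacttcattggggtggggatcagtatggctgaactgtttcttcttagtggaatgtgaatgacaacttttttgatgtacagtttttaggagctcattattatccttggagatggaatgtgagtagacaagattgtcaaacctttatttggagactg
Gabrq promoter: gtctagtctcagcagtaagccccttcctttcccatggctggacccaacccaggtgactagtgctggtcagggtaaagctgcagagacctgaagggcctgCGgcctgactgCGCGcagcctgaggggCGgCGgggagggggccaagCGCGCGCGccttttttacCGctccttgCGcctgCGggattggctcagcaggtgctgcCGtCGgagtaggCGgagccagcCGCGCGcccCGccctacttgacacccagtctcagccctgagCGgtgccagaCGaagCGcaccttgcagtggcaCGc
Gabre promoter: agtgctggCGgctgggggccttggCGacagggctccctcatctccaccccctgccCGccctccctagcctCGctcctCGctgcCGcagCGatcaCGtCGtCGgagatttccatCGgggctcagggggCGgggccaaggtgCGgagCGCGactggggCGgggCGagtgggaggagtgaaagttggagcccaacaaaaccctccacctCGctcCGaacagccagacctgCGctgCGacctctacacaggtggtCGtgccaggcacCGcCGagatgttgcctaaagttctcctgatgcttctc
RefSeq gives Gabra3 a second start, whose window (chrX:72656870-72657169, minus strand) is not shown and also held 0 CG dinucleotides. The Gabra3 window shown (chrX:72656758-72657057, minus strand) held 0 CG dinucleotides, that of Gabrq (chrX:72824928-72825227, plus strand) 23 and that of Gabre (chrX:72274672-72274971, minus strand) 24. The median over 32851 promoters was 7, with 5.43% of them holding 0 and 21.5% holding 23 or more.

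**Figure D1:**
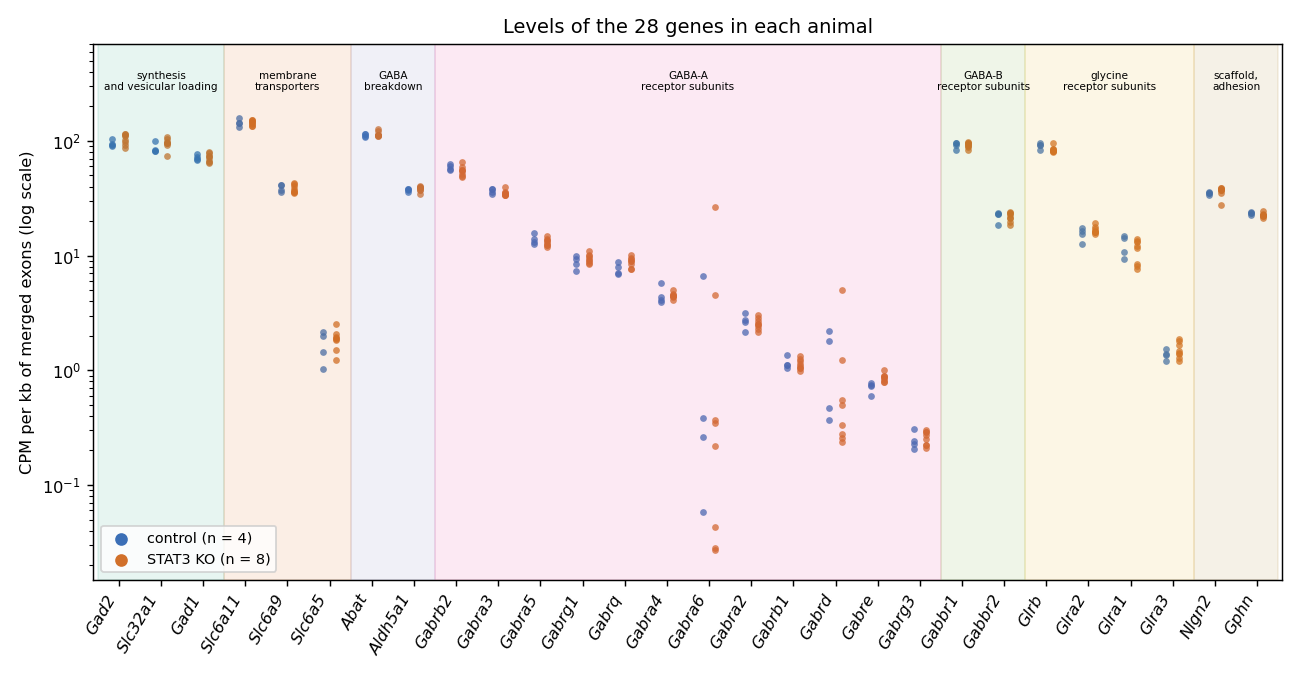
Level of each of the 28 genes in each animal, in CPM per kilobase of merged exons on a log scale, with controls (n = 4) in blue and STAT3 KO mice (n = 8) in orange, grouped by role. Most genes span a narrow range over the 12 animals, while Gabra6 runs from 0.0271 to 26.8 and Gabrd from 0.236 to 5.03 CPM per kilobase.

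Levels of different genes are compared here only per kilobase, as means ± SD over the 12 animals. Among the genes that make and load the transmitter, Gad2 was at 101 ± 10.02 CPM per kilobase, Slc32a1 at 92.8 ± 10.4 and Gad1 at 71.7 ± 5.28. The ranges of these 3 genes over animals overlapped, although Gad2 was above Slc32a1 in 10 of 12 animals and Slc32a1 above Gad1 in 11 of 12. Within an animal the level of Gad2 per kilobase was 1.41 ± 0.0889 times that of Gad1 (SD, n = 12). This order depends on the length that is used, since with the longest transcript in place of merged exons Gad1 came to 152 and Gad2 to 104 CPM per kilobase.

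Of the membrane transporters, Slc6a11, the GABA transporter found mainly on astrocytes, was at 144 ± 7.696 CPM per kilobase, the highest of the 28 genes on this length. Slc6a9, the glycine transporter found mainly on glia, was at 38.5 ± 2.88, and Slc6a5, the glycine transporter of glycinergic nerve terminals, at 1.797 ± 0.424. The ranges of these 3 genes did not overlap over the 12 animals. The level of Slc6a5 was 0.0195 ± 0.004801 times that of Slc32a1 (SD, n = 12), the vesicular transporter that GABA and glycine neurons share. The enzymes of GABA breakdown, Abat and Aldh5a1, were at 114 ± 5.48 and 38.04 ± 1.68 CPM per kilobase.

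The GABA-A receptor subunits ranged from Gabrb2 at 56.5 ± 5.12 to Gabrg3 at 0.254 ± 0.0375 CPM per kilobase. Of the 5 alpha subunit members, which are not all the alpha subunits of the mouse, Gabra3 made up 60.7 ± 6.202% of the summed level and Gabra5 22.7 ± 2.69% (SD, n = 12). Gabra4 followed with 7.63 ± 0.862%, and Gabra2 had 4.41 ± 0.6302%. The members with the histidine codon shown above, Gabra2, Gabra3 and Gabra5, thus included the 2 with the largest shares. The share of Gabra6 lay between 0.04903% and 33%, the widest range of the 5. Between the 2 beta subunit members, Gabrb2 made up 98.02 ± 0.1498% and Gabrb1 the rest.

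Subunits known from few brain regions were read too. Gabrq, the theta subunit, was at 8.44 ± 1.0 CPM per kilobase and Gabre, the epsilon subunit, at 0.814 ± 0.103, and both are known from monoaminergic cell groups. Gabrg1, a gamma subunit, was at 9.22 ± 0.954, close to Gabrq, with overlapping ranges. The GABA-B receptor works as a pair of unlike subunits, of which Gabbr1 was at 92.2 ± 4.81 and Gabbr2 at 21.9 ± 2.01 CPM per kilobase, a ratio of 4.24 ± 0.347.

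Among the glycine receptor subunits, Glrb was at 86.4 ± 5.92 CPM per kilobase, 5.35 ± 0.704 times Glra2 (SD, n = 12). The alpha subunit of the juvenile receptor, Glra2, made up 56.1 ± 5.802% of the 3 alpha members, the alpha subunit of the adult spinal receptor, Glra1, 38.9 ± 5.88%, and Glra3 5.02 ± 0.404%. Glra2 was above Glra1 in 11 of 12 animals, and their ranges overlapped. Glra1 varied more than most members, with values of 36.1 CPM in control 3, 26.03 in control 4, 34.2 in control 11 and 22.7 in control 13 and of 18.6 (STAT3 KO 5) to 33.4 CPM (STAT3 KO 7), with a median of 28.8 CPM in STAT3 KO mice. Of the genes of the postsynaptic side, Nlgn2, an adhesion molecule of inhibitory synapses, was at 35.9 ± 3.06, and Gphn, which anchors glycine and GABA-A receptors, at 22.9 ± 0.872 CPM per kilobase.

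Genotypes were compared with edgeR's two-sided quasi-likelihood test over 15453 genes that passed the expression filter, all 28 members among them, with Benjamini-Hochberg adjustment over all genes tested. Each library holds RNA of every cell of the piece of tissue, so that fewer cells of a type and less RNA per cell cannot be told apart. Of the 28 members 0 had an adjusted p below 0.05, as had 0.0% of all genes, and the smallest adjusted p of a member was 0.615. DESeq2 called 6 genes and edgeR's likelihood ratio test 3, with 0 members in either. At an unadjusted p below 0.05 there were 3 members, 2 higher and 1 lower in STAT3 KO mice, beside 7.66% of all genes (3.61% higher and 4.05% lower). Log2 fold changes were above 0 for 13 of the 28 members and for 49.4% of all genes, with medians of -0.021 and -0.0011. The share of members at the unadjusted threshold was near that of all genes.

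**Figure D2:**
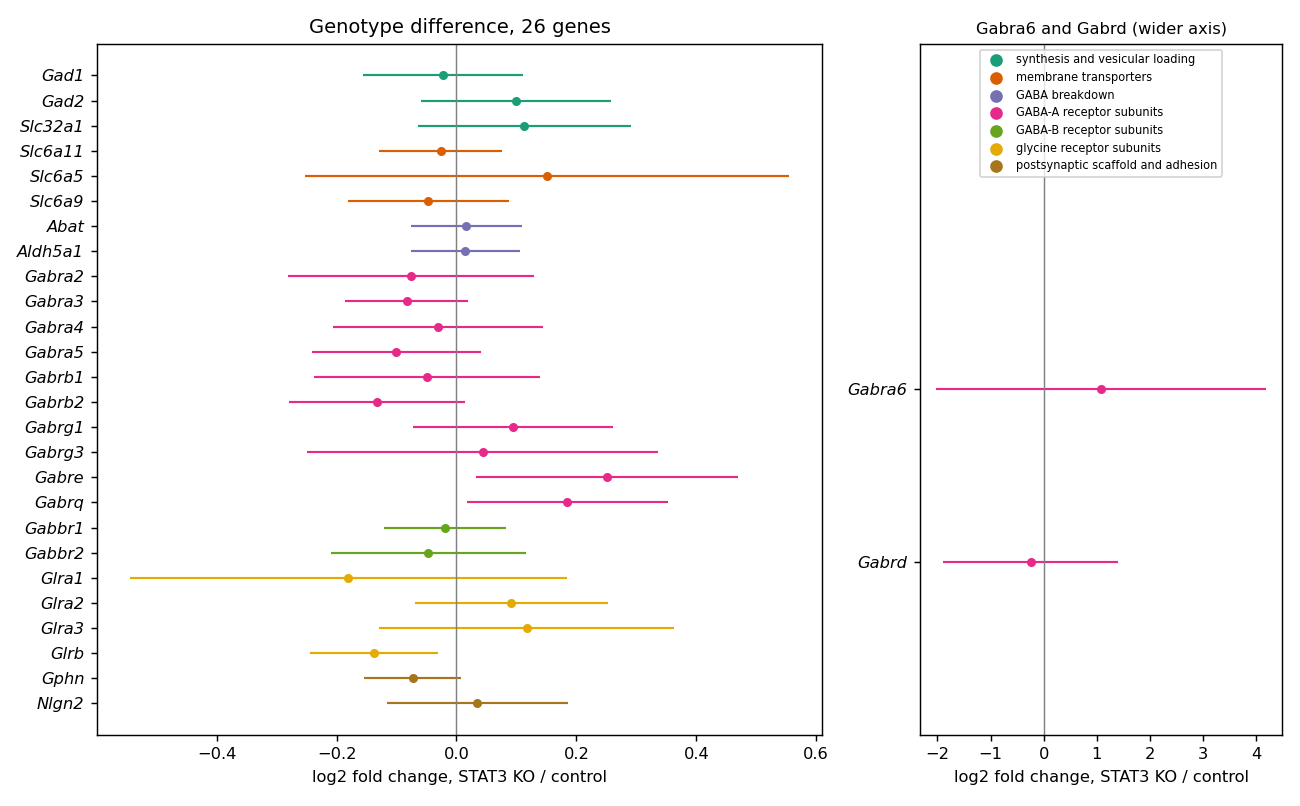
Log2 fold change of STAT3 KO against control for each gene, with the 95% interval of edgeR's quasi-likelihood test as a bar and colours for roles. Gabra6 and Gabrd are drawn on a wider axis of their own, since their intervals run from -2.02 to 4.19 and from -1.89 to 1.40, and the intervals of Gabre, Gabrq and Glrb are those that leave out 0.

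Gabre was read at 2.83 CPM in control 3, 3.55 in control 4, 3.7 in control 11 and 3.45 in control 13. In STAT3 KO mice it ran from 3.71 (STAT3 KO 8) to 4.79 CPM (STAT3 KO 6), with a median of 4.08 CPM. On library totals every STAT3 KO animal was above every control, by a narrow margin, and control 3 was the lowest of the 12. Of the 28 members this held for Gabre alone, and of all genes 0.362% were higher without overlap and 0.492% apart in either direction. With TMM scaling the genotypes overlapped, since 6 of 8 STAT3 KO animals were then above the highest control, at 3.74 CPM. The log2 fold change was 0.25 (SE 0.10, 95% interval 0.033 to 0.47), where SE is the standard error, with unadjusted p = 0.0266 and adjusted p = 0.615 in edgeR's test. The exact permutation test, two-sided and on the difference in mean log2 CPM, gave p = 0.00202, the smallest it can give, with library totals and 0.00808 with TMM scaling. The value for library totals restates the lack of overlap given above and is not separate from it. Without control 3 the log2 fold change of Gabre was 0.18 (SE 0.11), with unadjusted p = 0.112 by edgeR and an exact permutation p of 0.0364 with library totals. Over all genes 7.23% had a permutation p below 0.05.

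Gabrq, on the same stretch of the X chromosome, was read at 36.9 CPM in control 3, 38.03 in control 4, 46.7 in control 11 and 42.2 in control 13. Its values in STAT3 KO mice ran from 41.2 (STAT3 KO 6) to 54.3 CPM (STAT3 KO 10), with a median of 47.9 CPM. The genotypes overlapped, with controls 3 and 4 below every STAT3 KO animal and controls 11 and 13 among them. The log2 fold change was 0.18 (SE 0.079, 95% interval 0.017 to 0.35), with unadjusted p = 0.0332 and adjusted p = 0.6297 from edgeR. The exact permutation p was 0.0444 with library totals and 0.0667 with TMM scaling, and 0.145 without control 3. The third X-linked GABA-A member, Gabra3, lies between them, and its log2 fold change was -0.083 (SE 0.049, 95% interval -0.19 to 0.020), with unadjusted p = 0.106 and adjusted p = 0.741 by edgeR. Gabra3 was read at 135 CPM in control 3, 150.3 in control 4, 149 in control 11 and 142 in control 13, and at 131 (STAT3 KO 6) to 157 CPM (STAT3 KO 8), with a median of 136 CPM in STAT3 KO mice.

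Glrb (chr3:80843599-80913660, minus strand), the subunit that ties glycine receptors to gephyrin, was read at 430.2 CPM in control 3, 387 in control 4, 447 in control 11 and 432 in control 13. In STAT3 KO mice its values ran from 372 (STAT3 KO 10) to 443 CPM (STAT3 KO 8), with a median of 386 CPM. Control 4 lay among the STAT3 KO animals, and STAT3 KO 8 lay among the other controls, while the remaining 7 STAT3 KO animals were at 396 CPM or less. The log2 fold change was -0.14 (SE 0.050, 95% interval -0.24 to -0.030), with unadjusted p = 0.0155 and adjusted p = 0.615 from edgeR. The exact permutation p was 0.0606 with library totals and 0.0263 with TMM scaling. Without STAT3 KO 8 the log2 fold change was -0.16 (edgeR's quasi-likelihood test, adjusted p = 0.3302).

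**Figure D3:**
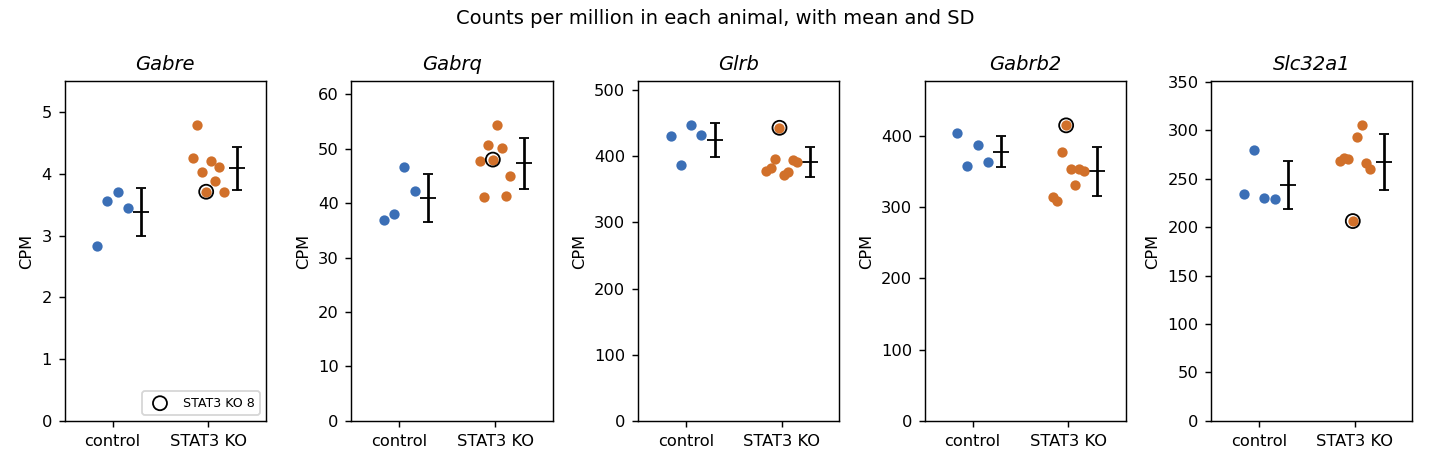
CPM of Gabre, Gabrq, Glrb, Gabrb2 and Slc32a1 in each animal, on linear axes that start at 0, with the mean and SD of each genotype beside the points and a ring around STAT3 KO 8. The ringed animal is the highest of the 8 STAT3 KO animals for Glrb and Gabrb2 and the lowest for Slc32a1.

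Gabrb2, the main beta subunit among the members, was at 378 ± 21.2 CPM in controls (SD, n = 4) and 349.9 ± 34.4 CPM in STAT3 KO mice (SD, n = 8). Its log2 fold change was -0.13 (SE 0.069, 95% interval -0.28 to 0.015). Gphn was at 87.7 ± 1.89 CPM in controls (SD, n = 4) and 84.7 ± 3.44 CPM in STAT3 KO mice (SD, n = 8), with a log2 fold change of -0.073 (SE 0.038, 95% interval -0.15 to 0.0082). For both genes 1 of 8 STAT3 KO animals was above the control mean, and in both cases it was STAT3 KO 8. The unadjusted p values were 0.07403 and 0.0747 and the adjusted ones 0.694 and 0.695 by edgeR's quasi-likelihood test.

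The genes that make and load GABA did not pass the test. Gad1 was at 548 ± 28.8 CPM in controls (SD, n = 4) and 548 ± 46.9 CPM in STAT3 KO mice (SD, n = 8), and its log2 fold change was -0.022 (SE 0.063, 95% interval -0.16 to 0.11). For Gad2 the levels were 562 ± 37.6 CPM in controls (SD, n = 4) and 611 ± 62.4 CPM in STAT3 KO mice (SD, n = 8), and 6 of 8 STAT3 KO animals were above the control mean. Its log2 fold change was 0.100 (SE 0.074, 95% interval -0.059 to 0.26). Gad2 was at 665, 672 and 673 CPM in STAT3 KO 7, 10 and 14, the 3 highest of the 12 animals, which are 3 of the 4 libraries with high Purkinje cell markers, at 578 in STAT3 KO 16, the 4th of these, and at 646 in STAT3 KO 8. Slc32a1 was read at 234 CPM in control 3, 280.0 in control 4, 230.2 in control 11 and 229 in control 13, so that control 4 stood above the other controls. In STAT3 KO mice it ran from 206 (STAT3 KO 8) to 305 CPM (STAT3 KO 14), with a median of 269 CPM, and 7 of 8 animals were above the control mean. The log2 fold change of Slc32a1 was 0.11 (SE 0.083, 95% interval -0.064 to 0.29). The unadjusted p values of Gad1, Gad2 and Slc32a1 were 0.726, 0.201 and 0.194 by edgeR, with adjusted p values of 0.817 or more. Without control 4 Slc32a1 came to 0.19 (SE 0.086, unadjusted p = 0.0422 by edgeR) and Gad2 to 0.15 (SE 0.080). Without STAT3 KO 7, 10, 14 and 16, a setting added after seeing the data, the log2 fold change was 0.013 (SE 0.077) for Gad2 and 0.034 (SE 0.095) for Slc32a1. Since these 4 libraries are all of 1 genotype, genotype and Purkinje cell RNA cannot be told apart in them. The part of Purkinje cells in these values was not tested. On the fold scale the 95% intervals were 0.897 to 1.08 for Gad1, 0.96 to 1.196 for Gad2 and 0.956 to 1.22 for Slc32a1. About 24.9% of the exon bases of Slc32a1 lie opposite Gm14205, and reads of the pair cannot be told apart where strand was not used in counting.

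Slc6a5 was read at 7.32 CPM in control 3, 14.4 in control 4, 15.6 in control 11 and 10.4 in control 13, and at 8.85 (STAT3 KO 5) to 18.2 CPM (STAT3 KO 7), with a median of 13.7 CPM in STAT3 KO mice. The groups overlapped over most of their range, with control 3 the lowest animal and STAT3 KO 7 the highest. Its log2 fold change was 0.15 (SE 0.19, 95% interval -0.25 to 0.55), with unadjusted p = 0.437 and adjusted p = 0.911 by edgeR, and it changed sign without control 3 (-0.020). Of the glycine receptor alpha subunits, Glra2 was at 48.7 ± 6.44 CPM in controls (SD, n = 4) and 52.7 ± 3.87 CPM in STAT3 KO mice (SD, n = 8), and the genotypes overlapped. The log2 fold change of Glra2 was 0.091 (SE 0.076, 95% interval -0.070 to 0.25), with unadjusted p = 0.246 and adjusted p = 0.842 by edgeR, and without control 3, the lowest animal, it was 0.011. Glra1 and Glra3 had log2 fold changes of -0.18 (SE 0.17) and 0.12 (SE 0.12), and without control 3 that of Glra1 was -0.069.

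None of the remaining members passed the test either. Gabra5, an alpha subunit known mainly from extrasynaptic receptors, was at 41.3 ± 4.13 CPM in controls (SD, n = 4) and 39.1 ± 2.72 CPM in STAT3 KO mice (SD, n = 8). Its log2 fold change was -0.10 (SE 0.066, 95% interval -0.24 to 0.041), with unadjusted p = 0.151 and adjusted p = 0.7796 by edgeR, and it ran from -0.14 (without control 3) to -0.029 (without control 11) when single animals were left out. Abat and Aldh5a1 were at 0.016 (SE 0.044) and 0.015 (SE 0.042), Slc6a11 and Slc6a9 at -0.026 (SE 0.048) and -0.047 (SE 0.063), and Gabbr1 and Gabbr2 at -0.019 (SE 0.048) and -0.047 (SE 0.076). Of these, Abat, Slc6a11 and Gabbr1 changed sign without some single animal. The log2 fold change of Nlgn2 was 0.035 (SE 0.071), and 0.084 without STAT3 KO 8. The other GABA-A members, Gabra2, Gabra4, Gabrb1, Gabrg1 and Gabrg3, lay between -0.076 (Gabra2) and 0.094 (Gabrg1), with unadjusted p values of 0.2504 or more by edgeR. Without control 3 Gabrg1 was at 0.023, and without control 4 Gabra4 moved from -0.031 to 0.11.

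Which members fell below an unadjusted p of 0.05 rested on single animals. Without STAT3 KO 8 there were 8 members (10.8% of all genes), namely Glrb, Gabra3, Gabrb2, Gphn, Slc32a1, Gabre, Nlgn2 and Gabrq. Without control 3 there was 1, Glrb (beside 5.0% of all genes). STAT3 KO 8 also had high choroid plexus markers, as had STAT3 KO 16, and without both animals there were 9 members (10.7% of all genes), the 8 and Gabrd. Without the 4 libraries with high Purkinje cell markers there were 2, Gabra6 and Gabrd (5.21% of all genes), with Gabre at 0.30, Gabrq at 0.099 and Glrb at -0.11. Over the 8 genes the GC content of the longest transcript ran from 40.8% (Glrb) to 61.9% (Slc32a1). In STAT3 KO 8 the GC-rich Slc32a1 was at 206 CPM and Nlgn2 at 161 CPM, each the lowest of the 12 animals. The GC-poor Glrb was at 443 and Gabra3 at 157 CPM, each the highest of the STAT3 KO animals. Across the 28 members the rho of deviation with GC content was -0.756 in STAT3 KO 8. With a correction for GC content in each library, which was added after seeing the data, there were again 3 members at the unadjusted threshold (8.63% of all genes), with log2 fold changes of 0.25 for Gabre, 0.19 for Gabrq and -0.12 for Glrb.

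**Figure D4:**
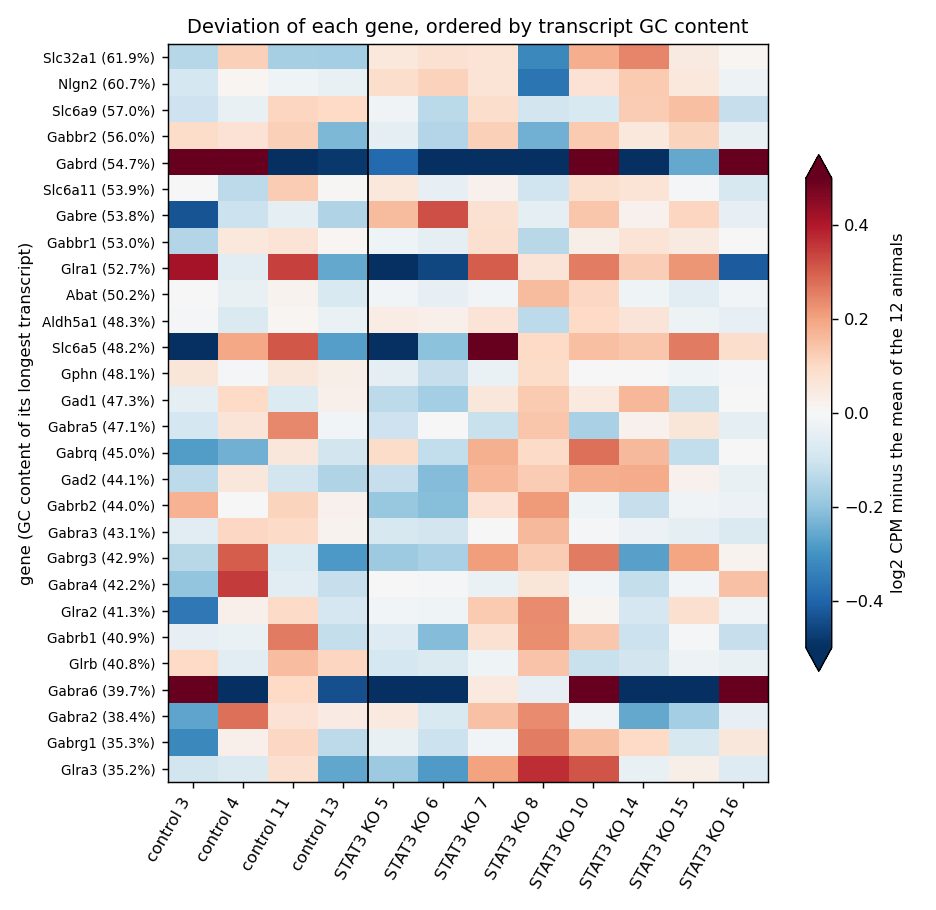
Deviation of each gene's log2 CPM from its mean over the 12 animals, with genes ordered from the highest to the lowest GC content and a line between controls and STAT3 KO mice. Values past the ends of the colour scale, such as those of Gabra6 and Gabrd, saturate, and the column of STAT3 KO 8 turns from blue at Slc32a1 and Nlgn2 to red at Glra3 and Gabrg1.

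Gabra6, an alpha subunit known almost only from cerebellar granule cells, was read at 16.6 CPM in control 3, 0.144 in control 4, 0.953 in control 11 and 0.656 in control 13. In STAT3 KO mice it ran from 0.0675 (STAT3 KO 15) to 66.6 CPM (STAT3 KO 16), with a median of 0.707 CPM. It was above 10 CPM in control 3 and STAT3 KO 10 and 16, and at 0.953 CPM or less in the other 9 animals, of which STAT3 KO 5 and 15 had 2 counts each, under the floor. The same 3 animals had the 3 highest scores for cerebellar granule cell markers, where a score is the mean over the list of each gene's log2 CPM minus its mean over the animals. The scores were 1.404, 1.303 and 2.51 in these animals and -0.841 to -0.206 in the others. All 7 markers had counts in every library, and their sum was 32.7 to 121 CPM in controls and 29.4 to 299 CPM in STAT3 KO mice. Since the animals form separate clusters, no correlation over all 12 is given. Over the 9 animals with low scores, Gabra6 and the score had Pearson's r of 0.829 and Spearman's rho of 0.767. These animals were chosen after the scores were seen and include STAT3 KO 5 and 15, under the floor, so no p value is given. Without the 2 animals farthest from the median score r was 0.814.

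Gabrd, the delta subunit of extrasynaptic receptors in cerebellar granule cells and forebrain neurons, was read at 5.15 CPM in control 3, 6.39 in control 4, 1.07 in control 11 and 1.35 in control 13. In STAT3 KO mice it ran from 0.679 (STAT3 KO 6) to 14.5 CPM (STAT3 KO 16), with a median of 1.2 CPM. The 3 animals with high Gabra6 and control 4 were at 3.56 CPM or more, and the other 8 at 1.59 CPM or less. Control 4 had the highest score for forebrain excitatory neurons, at 2.46, and the next were STAT3 KO 16, 15 and 5 at 0.768, 0.734 and 0.381. The sums of the 10 forebrain markers were 171 to 786 CPM in controls and 193 to 300.4 CPM in STAT3 KO mice. Over the 12 animals Gabrd and this score had r = 0.613 (permutation p = 0.0315, 0.102 adjusted) and rho = 0.846 (permutation p = 9.70e-04, 0.006305 adjusted). Without control 4 and STAT3 KO 16, r was 0.228, so that the linear relation rested on those animals. The log2 fold changes between genotypes were 1.08 (SE 1.46) for Gabra6 and -0.24 (SE 0.77) for Gabrd. Without single animals that of Gabra6 ran from -1.25 (without STAT3 KO 16) to 4.09 (without control 3), and that of Gabrd from -1.35 (without STAT3 KO 16) to 0.23 (without control 4), with 0.0073 without control 3. The part of cells from outside the DR in these values was not tested.

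**Figure D5:**
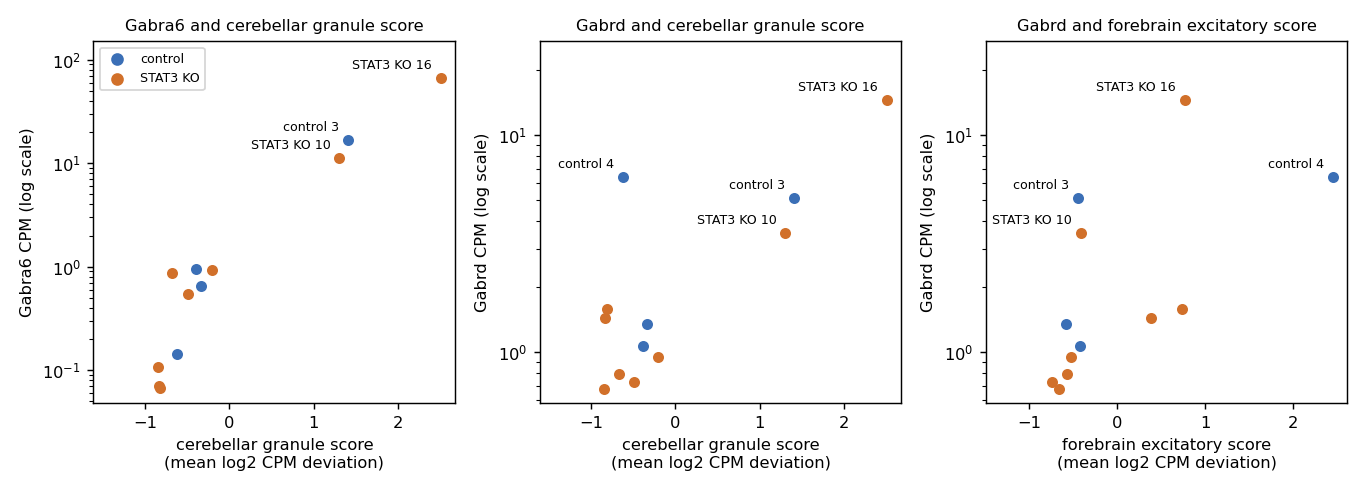
CPM on a log scale of Gabra6 against the cerebellar granule cell score (left), and of Gabrd against that score (middle) and the forebrain excitatory neuron score (right), 1 point per animal, controls in blue and STAT3 KO mice in orange, with names for animals above 3 CPM. The 3 animals with Gabra6 above 10 CPM have granule cell scores above 1, and control 4, high for Gabrd, is low on the granule cell score and highest on the forebrain score.

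Sex was tested in the same 12 animals with genotype in the model, 6 females against 6 males. The members on the X chromosome were Gabra3, Gabre, Gabrq and Glra2. By edgeR's quasi-likelihood test 0 of 28 members had an adjusted p below 0.05, beside 0.0841% of all genes (13 genes). Before adjustment 2 of 28 were below 0.05, beside 7.2% of all genes. One was Gabra5, at 37.4 ± 1.34 CPM in females and 42.3 ± 2.66 CPM in males (SD, n = 6 each). Its female minus male log2 fold change was -0.18 (SE 0.043, adjusted p = 0.444 by edgeR). The values ran from 35.5 to 39.3 CPM in females and from 39.7 to 46.9 CPM in males, and the sexes did not overlap. This held for 1 of the 28 members and for 0.362% of all genes.

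The second was Gabra6, at a female minus male log2 fold change of 5.12 (SE 1.26, adjusted p = 0.506 by edgeR). DESeq2 called it, with 5.09 and an adjusted p of 0.0351, as 1 of 24 genes. The 3 animals with high Gabra6 and a high granule cell score were females, and the other 3 females were at 0.656 (control 13), 0.0705 (STAT3 KO 5) and 0.9204 CPM (STAT3 KO 7), within the male range of 0.0675 to 0.953 CPM. The part of cerebellar RNA in this difference was not tested. The X-linked members had female minus male log2 fold changes of -0.075 (Gabra3), -0.091 (Gabre), 0.047 (Gabrq) and -0.12 (Glra2), with unadjusted p values of 0.0948 or more by edgeR.

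Whether the genotype difference itself differed between the sexes was asked with the interaction term. Of the 28 members 0 passed after adjustment, beside 0.0% of all genes. Before adjustment 2 were below 0.05, beside 5.49% of all genes. These were Gabra4 (interaction 0.35 on the log2 scale, SE 0.14) and Slc6a5 (interaction 0.79, SE 0.31). The count was 6 without control 13 (5.87% of all genes), 5 without STAT3 KO 8 (6.98%) and 4 without STAT3 KO 5 (5.46%). The interaction was above 0 for 23 of 28 members and for 50.0% of all genes. In females alone, with 2 controls and 4 STAT3 KO animals, 7 members had an unadjusted p below 0.05 (12.8% of all genes), of which Glrb was lower and Slc32a1, Gabrq, Gabrg1, Glra2, Slc6a5 and Gabre were higher in STAT3 KO mice. Of these 7, Slc6a5 is the one that was also below 0.05 in the interaction test. In males alone it was 1 member, Gabrd, at -1.99 (2.15% of all genes). One of the 2 female controls was control 3 and one of the 2 male controls was control 4, libraries that stood apart, and STAT3 KO 8 was among the males.

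Relations over the 12 animals were computed for 13 pairs of members, or of a member and a marker score, and p values were adjusted over the 13. Gad1 and Gad2 had r = 0.771 (permutation p = 0.00459, 0.0298 adjusted) and rho = 0.762 (permutation p = 0.00545, 0.0236 adjusted), with r = 0.623 without STAT3 KO 6 and 14. Gad1 and Slc32a1, which the same neurons use, did not pass, with r = 0.0599 (permutation p = 0.851, 0.902 adjusted) and rho = 0.175 (permutation p = 0.587, 0.672 adjusted). Without STAT3 KO 8, where Gad1 was at 598 and Slc32a1 at 206 CPM, r of this pair was 0.405. Gad2 and the score of midbrain GABA neuron transcription factors had r = 0.676 (permutation p = 0.0182, 0.0788 adjusted) and rho = 0.685 (permutation p = 0.0167, 0.0544 adjusted), and r = 0.431 without STAT3 KO 10 and 14, which are among the libraries with high Purkinje cell markers. Gabre and the serotonergic score had r = 0.558 (permutation p = 0.0632, 0.164 adjusted) and rho = 0.413 (permutation p = 0.184, 0.325 adjusted), and r = 0.321 without control 3 and STAT3 KO 14, the animals with the lowest serotonergic scores. The pairs of Gabra6 and Gabrd with marker scores are given above, and the other 7 pairs did not pass.

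Further lists show the rest of the pathway. Of 35 other genes of inhibitory synapses, 31 were tested, 0 passed after adjustment, and 1 had an unadjusted p below 0.05 (beside 7.66% of all genes), Slc12a2, the chloride importer, at -0.17 (SE 0.053, unadjusted p = 0.00546). Log2 fold changes of 11 of these 31 were above 0, with a median of -0.043. Of 15 genes that supply glycine and glutamine, 0 passed after adjustment and 5 had log2 fold changes above 0. Of 10 transcription factors of midbrain GABA neurons, 8 were tested and 0 passed, and 8 of 8 had log2 fold changes above 0, beside 49.4% of all genes, with a median of 0.16. One of the 8, Gata3, is also among the serotonergic markers used here. Lhx1, a list member known also from Purkinje cells, was at 10.8, 13.6, 11.6 and 12.5 CPM in STAT3 KO 7, 10, 14 and 16 and at most 9.97 CPM in the others. Without these 4 animals 6 of 8 were above 0, with a median of 0.085. The part of Purkinje cells in these differences was not tested. Of the Purkinje cell markers themselves, Pcp2 was at 3.01 (SE 1.34, unadjusted p = 0.0398) and Car8 at 1.59 (SE 0.67, unadjusted p = 0.0315), with adjusted p values of 0.625 or more by edgeR. Of the 8 transcription factors 2 had an unadjusted p below 0.05, both higher, beside 7.66% of all genes (3.61% higher), namely Tal1 at 0.14 (SE 0.061, unadjusted p = 0.0362) and Sox14 at 0.29 (SE 0.12, unadjusted p = 0.0324). Of 9 transcription factors of forebrain GABA neurons, 3 were tested, and Lhx6 was at -1.11 (SE 0.42, unadjusted p = 0.0195), with 2.37 CPM in control 4 and at most 0.794 CPM elsewhere. The genes named in these lists were chosen after their values were seen.

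STAT proteins bind DNA at a palindrome written TTCNNNGAA, where N is any base, and a search for it reads both strands at once. A promoter window was available in RefSeq for 25 of the 28 members, and not for Abat, Gabrd and Glra1. The letters were present in a window of 3 of the 25 (12%), beside 9.55% of 27025 genes. They are shown in capitals with up to 10 bases on either side.
Gabra6: gtaggattccTTCTGTGAAccatagaaat
Gabrg1: cagtattctcTTCAGAGAAgaaaatgtca
Gabrb1: ctaagttgcaTTCCTTGAAtctt
The match in Gabra6 (chr11:42321209-42321237, minus strand) began 155 bases before the start and that in Gabrg1 (chr5:70842745-70842773, minus strand) 146 bases before it. In Gabrb1 (chr5:71699959-71699981, plus strand) it lay just after the second of its starts. The log2 fold changes of the 3 genes were 1.08 (SE 1.46), 0.094 (SE 0.078) and -0.049 (SE 0.089), and none passed the test. The stricter form TTCCNGGAA was in 0 of 25 members and in 1.35% of genes. The windows of Gabre, Gabrq and Glrb held neither form.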

How the data were processed

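From DR tissue of 12 mice (4 controls, 8 STAT3 KO), 1 library per animal was prepared by the authors with an NEBNext Ultra II kit and read as single reads of 75 bases. The authors mapped the reads to mm10 with STAR 2.5.0b and deposited raw counts per gene symbol without normalisation. The read counter, the annotation and the use of strand are not given in the sources used here. The submitters' processing notes also name DESeq2 1.6.3. The lines for reads on no gene (13.4% to 15.3% of those listed) and on several genes (0.507% to 0.562%) were left out. Genotype, sex and number came from the labels. Nothing on the labels names a batch.

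The 28 genes and the other lists were chosen with earlier results of these data known. Genotype, sex and their interaction were tested with edgeR 4.0.16 (R 4.3.3) by the two-sided quasi-likelihood test with TMM scaling, filterByExpr by genotype (10 counts per library, 15 in total) and Benjamini-Hochberg adjustment over 15453 genes, with 0.05 as the threshold. Single members were also tested by a two-sided exact permutation test of mean log2 CPM (prior count 2) on library totals. Correlations used 100000 permutations. The 9 animals used for Gabra6 and the granule cell score were chosen after the scores were seen. Levels per kilobase used the merged exons of GENCODE vM21. Values per animal are CPM on library totals, and no interval of counting error is given for them. Exons lay opposite those of another gene for 38.6% of the bases of Slc6a9, 24.9% of Slc32a1 and 17.7% of Aldh5a1. Full statistics were given for the 10 members with the smallest unadjusted genotype p and for Gad1, Gad2, Slc32a1 and Slc6a5. Alternatives were DESeq2 1.42.0, the likelihood ratio test, limma 3.58.1 voom with sample quality weights, other scalings and filters, sex as a covariate, each sex alone, animals left out, and, added after seeing the data, offsets for GC content, the relations without STAT3 KO 8, and genotype without the animals with high Purkinje cell or choroid plexus markers. Levels, permutations and plots were made in Python 3.11.15 (numpy 2.4.6, pandas 2.3.3, matplotlib 3.10.9). Protein sequences were not used here. Values of some single genes of the marker and pathway lists are not reported here.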

Additional observations from a re-analysis of the deposited data

Results flagged for a closer look

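In 6 of 56 groups (28 genes in 2 genotypes) 1 animal stood apart from the others of its genotype by Dixon's test of log2 CPM, and chance at 1 in 20 would give 2.8. Slc32a1 was at 280.0 CPM in control 4 whereas the other controls lay between 229 and 234 CPM (a gap of 0.901 of their range). STAT3 KO 8 stood apart for 4 genes. In it Slc32a1 came to 206 CPM, while the other STAT3 KO animals had 259.7 to 305 CPM (gap 0.588 of the range), Nlgn2 at 161 CPM against 203 to 226 CPM (0.681), Gabra3 at 157 CPM against 131 to 139.8 CPM (0.649), and Glrb at 443 CPM against 372 to 396 CPM (0.638). Gabbr2 was at 125 CPM in control 13 and at 153 to 158 CPM in the other controls (0.860). The first 2 of the genes of STAT3 KO 8 have the highest GC content of the 28 and lay below the other animals, and the other 2 lie at 43.1% and 40.8% GC and lay above them. The part of GC content in these values was not tested beyond the correction given above.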

How the results depend on the processing

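Members with an adjusted p below 0.05 stayed at 0 for genotype and for the interaction under every alternative run, and for sex under all but DESeq2, which gave 1 (Gabra6). For genotype, DESeq2 called 6 genes, the likelihood ratio test 3 and males alone 2, against 0. The members at an unadjusted p below 0.05, 3 in all animals, were 7 with voom (10.4% of all genes) and in females alone (12.8%), 9 without STAT3 KO 8 and 16 (10.7%), and 1 without controls 3 and 4 (4.84%) and in males alone (2.15%), against 7.66%. DESeq2 called 24 genes for sex and 2 for the interaction, against 13 and 0. The interaction had 4 such members with no filter beyond 1 count (5.04% of all genes) and 5 with GC offsets (6.48%), against 2 (5.49%). Without single animals, genes called for genotype ranged from 0 to 1 (without control 4), such members from 1 (without control 3, 5.0% of all genes) to 8 (without STAT3 KO 8, 10.8%), and members with a permutation p below 0.05, 2 in all animals, from 1 to 7 (without STAT3 KO 8, 10% of all genes against 7.23%). For sex such members ranged from 2 to 5 (without STAT3 KO 7, 6.24% against 7.2%). For the interaction genes ranged from 0 to 37 (without control 11) and such members from 2 to 6 (without control 13, 5.87%). Of the 28 members 11 turned in log2 fold change without some single animal and 7 in males alone. Of the 12 members given with full statistics, log2 fold changes turned for Glra2 in males alone (-0.021), for Slc6a5 in males alone (-0.19) and without single animals (-0.020 to 0.31) and without STAT3 KO 7, 10, 14 and 16 (-0.0047), and for Gad1 with library totals (0.00015), without controls 3 and 4 (0.0074), without control 4 and STAT3 KO 5, 15 and 16 (0.062) and without single animals (-0.048 to 0.014). The causes were not tested. With library totals in place of TMM the median of all genes was 0.022 and 61.1% were above 0, against 49.4%, and 15 members were above 0. Only Gabra6 had libraries under the floor. The part of counting error in the intervals of the members was not tested.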
